A study of Mus musculus with 6 samples.

Results

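The expression of the *Hox* genes was described in primary cell cultures from the lateral wall of the cochlea. By the methods of the study, the starting tissue was the stria vascularis, a secretory epithelium with its capillary bed, along with the spiral ligament. The members were all rows of the count table whose symbol was *Hox* followed by a cluster letter from a to d and a number, which gave 39 of 24421 genes. Of these, 38 are described, with 10 in *HoxA*, 10 in *HoxB*, 9 in *HoxC* and 9 in *HoxD*. The rule uses no measured value. RNA was sequenced from 3 cultures of *Nhe6*-knockout mice and 3 cultures of wildtype mice, taken at postnatal day 10 to 12 and left untreated. The labels give the background as C57BL/6N for all 6 cultures, whereas the methods of the study name the C57bl6/j substrain, and the counts were not used to tell them apart. Each culture came from at least 6 pooled mice, so a library averaged over animals, and the cells were grown in endothelial medium with serum and endothelial growth factor before lysis. The methods name fluorescence-activated cell sorting as the step that purified the cells before further culture. *Nhe6* encodes an endosomal sodium and proton exchanger, and the labels name no cell type to which its knockout was restricted. The cultures are called KO1 to KO3 and WT1 to WT3 after their replicate numbers, which were not used to pair the genotypes.

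*Hox* genes encode homeodomain transcription factors and lie in 4 clusters, in which the order of the genes along the chromosome follows the order of the body regions where they act, from the hindbrain and pharyngeal arches to the tail and the ends of the limbs. A paralogue group holds the genes that occupy the same place in different clusters, numbered from the head end. Cells of the front of the head, including the cranial neural crest ahead of the hindbrain, form without *Hox* expression, and connective tissue cells in culture commonly keep the *Hox* genes of the body site from which they were taken.

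The labels call the cells primary endothelial cells, and the defining markers of that type were only partly present. Of 15 endothelial genes, 7 had at least 10 counts in every culture. Among those 7, *Emcn* had 9900 to 18393 normalized counts outside WT2 and 410 in it, and *Eng* had 2722 to 5081 and 867. *Cd34* had 793 to 1465 outside WT2 and 4867 in it, and *Tek* had 189 to 837 and 1006. *Cldn5*, the claudin of brain and ear capillaries, had 0 counts in all 6 cultures, and *Pecam1* stayed between 0.929 and 7.82 normalized counts and *Vwf* between 0 and 23.2. *Cdh5*, encoding VE-cadherin, lay between 179 and 232 normalized counts in the knockout cultures and between 2509 and 5200 in the wildtype cultures. All 10 fibroblast genes had at least 10 counts in every culture, and their summed level ranged from 267279 to 399853 normalized counts, beside 15990 to 25945 for the 15 endothelial genes. Gene counts per library ranged from 25587097 to 29126232. WT2 stood apart: on the first principal component it lay at 106, with the other cultures between -28.5 and -6.52, and 552 of 13479 genes tested (4.1%) lay more than 4-fold outside the range of the other 5 cultures, against 1 to 30 genes for any other culture. Values that rest on WT2 are therefore given with and without it. A bulk library cannot tell fewer cells with a transcript apart from less of it per cell.

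The sequence just before the start of a *Hox* gene is shown for 3 genes with reads and for *Hoxa6*, which lies next to *Hoxa5* and had no read in any culture. Promoters were taken from RefSeq on GRCm38.p6 as 250 bases before to 50 bases after the start. Of the 38 *Hox* genes described, 22 matched, with 24 promoters. *Hoxa2* is at chr6:52164782-52165081 on the minus strand, *Hoxd8* at chr2:74704365-74704664 on the plus strand, *Hoxa5* at chr6:52204538-52204837 on the minus strand and *Hoxa6* at chr6:52208623-52208922 on the minus strand. Capitals mark matches on either strand to 4 short motifs, namely TATAAA (the TATA box), CCAAT, TGATNNAT (a form of the joint PBX and HOX site) and TAATTA (a homeodomain core), of which no pair overlapped in the 4 sequences shown.
Hoxa2: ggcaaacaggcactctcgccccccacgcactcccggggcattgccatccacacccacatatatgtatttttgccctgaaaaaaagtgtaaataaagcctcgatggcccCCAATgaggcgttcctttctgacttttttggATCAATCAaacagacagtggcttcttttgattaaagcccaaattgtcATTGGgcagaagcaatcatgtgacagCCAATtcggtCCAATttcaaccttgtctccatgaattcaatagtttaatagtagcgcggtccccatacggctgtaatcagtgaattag
Hoxd8: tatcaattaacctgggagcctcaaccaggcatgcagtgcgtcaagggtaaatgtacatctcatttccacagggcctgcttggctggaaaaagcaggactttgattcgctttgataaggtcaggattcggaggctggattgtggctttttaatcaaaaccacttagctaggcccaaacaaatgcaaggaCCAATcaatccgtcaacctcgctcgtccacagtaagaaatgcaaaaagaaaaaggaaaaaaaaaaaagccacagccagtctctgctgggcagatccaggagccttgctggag
Hoxa5: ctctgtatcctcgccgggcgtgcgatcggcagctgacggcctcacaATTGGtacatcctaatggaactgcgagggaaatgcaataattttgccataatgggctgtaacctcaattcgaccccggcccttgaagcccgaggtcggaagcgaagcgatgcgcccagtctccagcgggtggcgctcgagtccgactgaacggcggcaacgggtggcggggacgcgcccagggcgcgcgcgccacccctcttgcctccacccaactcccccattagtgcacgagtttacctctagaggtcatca
Hoxa6: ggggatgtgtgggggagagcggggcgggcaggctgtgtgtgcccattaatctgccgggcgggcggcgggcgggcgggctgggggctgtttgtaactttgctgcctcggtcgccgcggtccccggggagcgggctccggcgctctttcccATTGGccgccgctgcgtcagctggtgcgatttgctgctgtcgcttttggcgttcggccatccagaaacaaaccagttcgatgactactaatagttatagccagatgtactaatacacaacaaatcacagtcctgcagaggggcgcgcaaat

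*Hoxa2* held 4 CCAAT matches and 1 TGATNNAT match, whereas *Hoxd8*, *Hoxa5* and *Hoxa6* each held 1 CCAAT match and none of the other 3 motifs. CCAAT occurred in 15 of the 24 *Hox* promoters (62.5%) and in 37.4% of all 32851 promoters of this length. TGATNNAT occurred in 4 of the 24 (16.7%) and in 8.85% of all, TATAAA in 4 (16.7%) and in 13.6%, and TAATTA in 2 (8.33%) and in 5.29%. The windows of *Hoxa2* and *Hoxd8* held 9 and 6 CpG dinucleotides, close to the median of 7 over all promoters, and those of *Hoxa5* and *Hoxa6* held 29 and 26. The 12 promoters of *Hox* genes with no read held 4 to 45 CpG with a median of 17.5, a range that covers *Hoxa2*, *Hoxd8* and *Hoxa5*. A motif match is a match of letters and says nothing of binding.

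The first question was which *Hox* genes the cultures expressed. *Hoxa2* held most of the reads of the 38 genes described, and most of the family was silent or near silent. With detection set at 10 reads in a library, *Hoxa2* was detected in all 6 cultures. *Hoxa3* was detected in 2 cultures, *Hoxa5* in 3 and *Hoxd8* in 5, which makes 3 genes detected in some but not every culture. Another 15 genes had reads without reaching 10 in any culture, with a highest count of 8, and 19 genes had 0 reads in all 6 cultures. A count of 0 allows up to 3 counts, which at these depths is a CPM (a count scaled to the total of gene reads in its library) of 0.103 to 0.117. Intervals and limits of this kind cover counting error only, and a gene at 0 was not detectable at this depth.

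**Figure D1:**
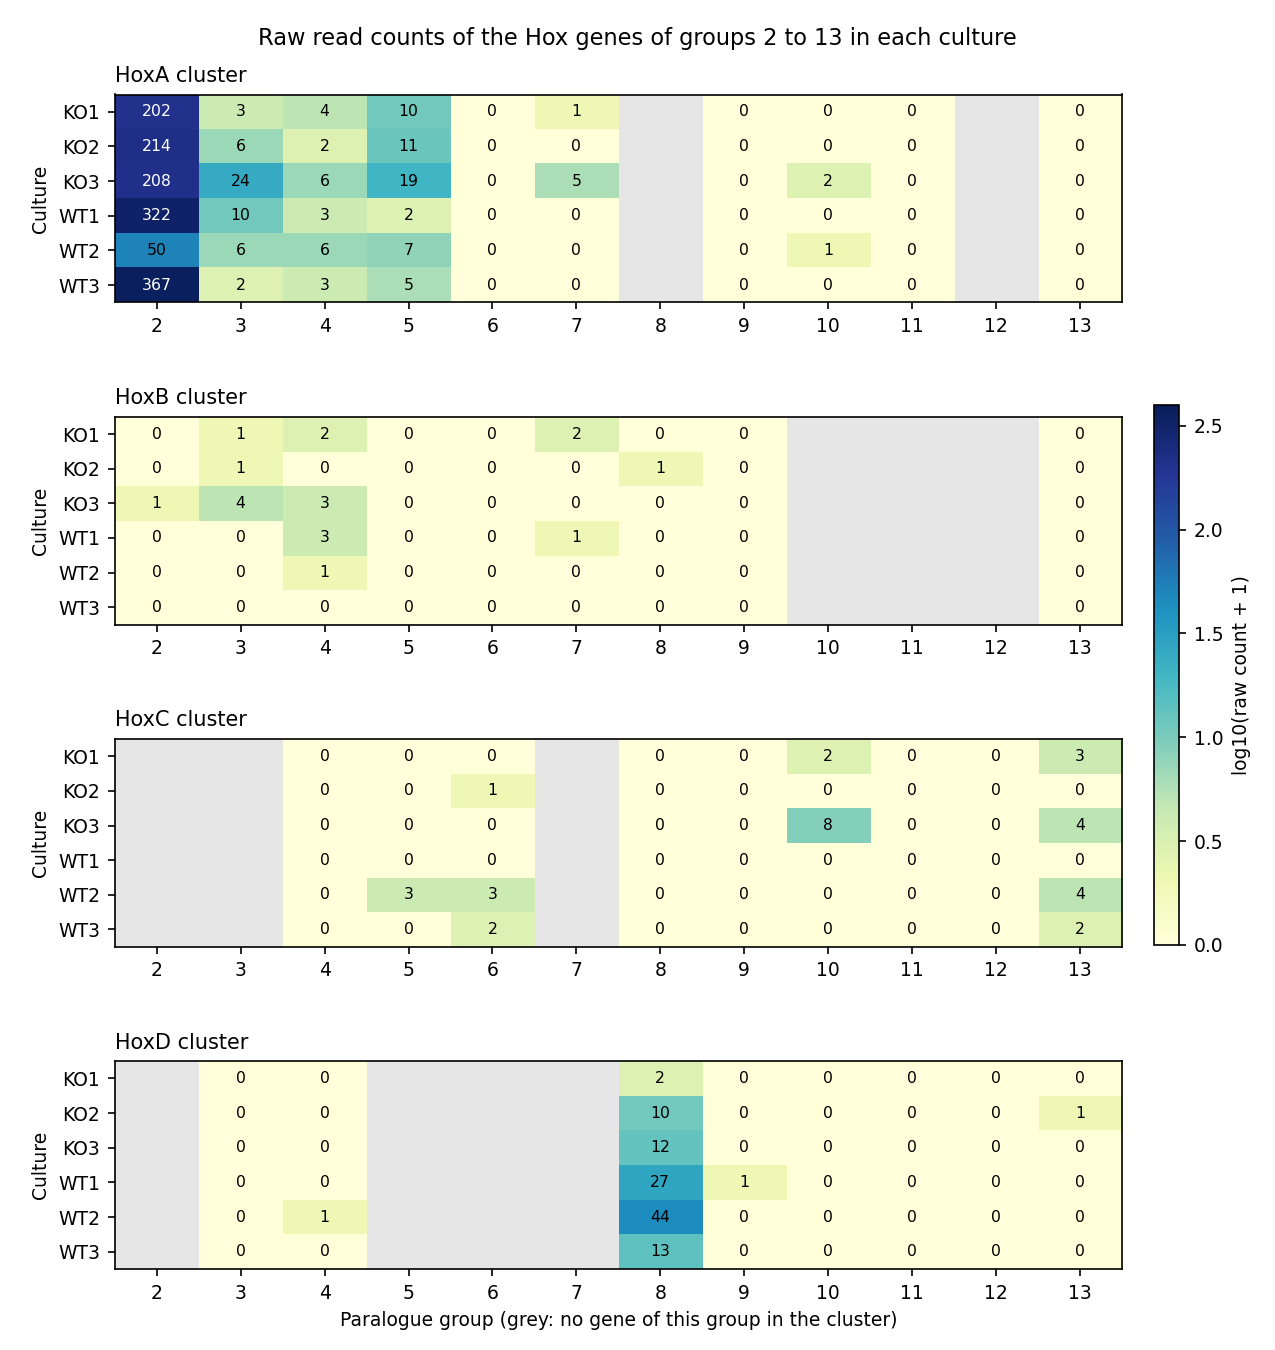
Raw read counts of the *Hox* genes of paralogue groups 2 to 13 (colour, log10 of the count plus 1, with the count printed in each cell) in the 6 cultures (rows; KO, *Nhe6*-knockout; WT, wildtype), by paralogue group (columns) and cluster (panels), with grey for groups that a cluster lacks. Reads concentrate in *Hoxa2*, with *Hoxd8* and *Hoxa5* behind it, and *HoxB* and *HoxC* hold no count above 8.

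The 38 *Hox* genes together took 1664 of 165374761 gene reads, a CPM of 10.1, and *Hoxa2* alone took 81.9% of them. By culture the sum was 232 reads in KO1, 247 in KO2, 296 in KO3, 369 in WT1, 126 in WT2 and 394 in WT3. WT2 had the lowest sum and also the lowest share from *Hoxa2*, 39.7%, while that share was 70.3% to 93.1% in the other 5 cultures. The number of genes detected was 2 in KO1, 3 in KO2, 4 in KO3, 3 in WT1, 2 in WT2 and 2 in WT3, so that no culture expressed a broad set of *Hox* genes.

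Along the clusters, most reads lay on a single gene near the head end of *HoxA*, namely *Hoxa2*. The 7 genes described of paralogue groups 1 to 3 held 1421 reads, the 15 genes of groups 4 to 8 held 215 and the 16 genes of groups 9 to 13 held 28. Of the 1421 reads, 1363 were those of *Hoxa2*, and the others fell on *Hoxa3* (51), *Hoxb3* (6) and *Hoxb2* (1). Without *Hoxa2*, groups 1 to 3 thus held fewer reads than groups 4 to 8. The last groups stayed lowest, with 28. The 28 reads of groups 9 to 13 were 5, 1 and 14 in KO1 to KO3 and 1, 5 and 2 in WT1 to WT3, and 11 of the 16 genes had none. The 10 genes of *HoxA* held 1501 reads, *HoxD* 111, *HoxC* 32 and *HoxB* 20. Of the 111 reads of *HoxD*, 108 fell on *Hoxd8*. *Hoxb1* and *Hoxd1*, of paralogue group 1, had 0 reads in every culture, and *Hoxb2*, the only other member of group 2, had 1 read, in KO3. Genes of groups 1 to 3 thus reached 10 reads in *HoxA* and in no culture in *HoxB* or *HoxD*.

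Compared per length of exon, as RPKM computed from the counts (CPM after TMM scaling, divided by the exon length in kb), *Hoxa2* had a mean level of 4.67 over the 6 cultures, *Hoxd8* 0.239, *Hoxa5* 0.172, *Hoxa4* 0.0915 and *Hoxa3* 0.0499. The median over all 13479 genes tested was 5.82 on the same scale, and *Hoxa2* stood at the 44.3 percentile, *Hoxd8* at 5.89 and *Hoxa5* at 4.01. *Hoxa2* lay above *Hoxd8* and *Hoxa5* within each of the 6 cultures. The levels of *Hoxd8*, 0.0281 to 0.6, and of *Hoxa5*, 0.0378 to 0.348, overlapped, with *Hoxd8* the lower of the pair in the 3 knockout cultures and the higher in the 3 wildtype cultures. Without WT2 their means were 0.167 for *Hoxd8* and 0.178 for *Hoxa5*, so their order was not settled, and that of *Hoxa2* was 5.39.

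**Figure D2:**
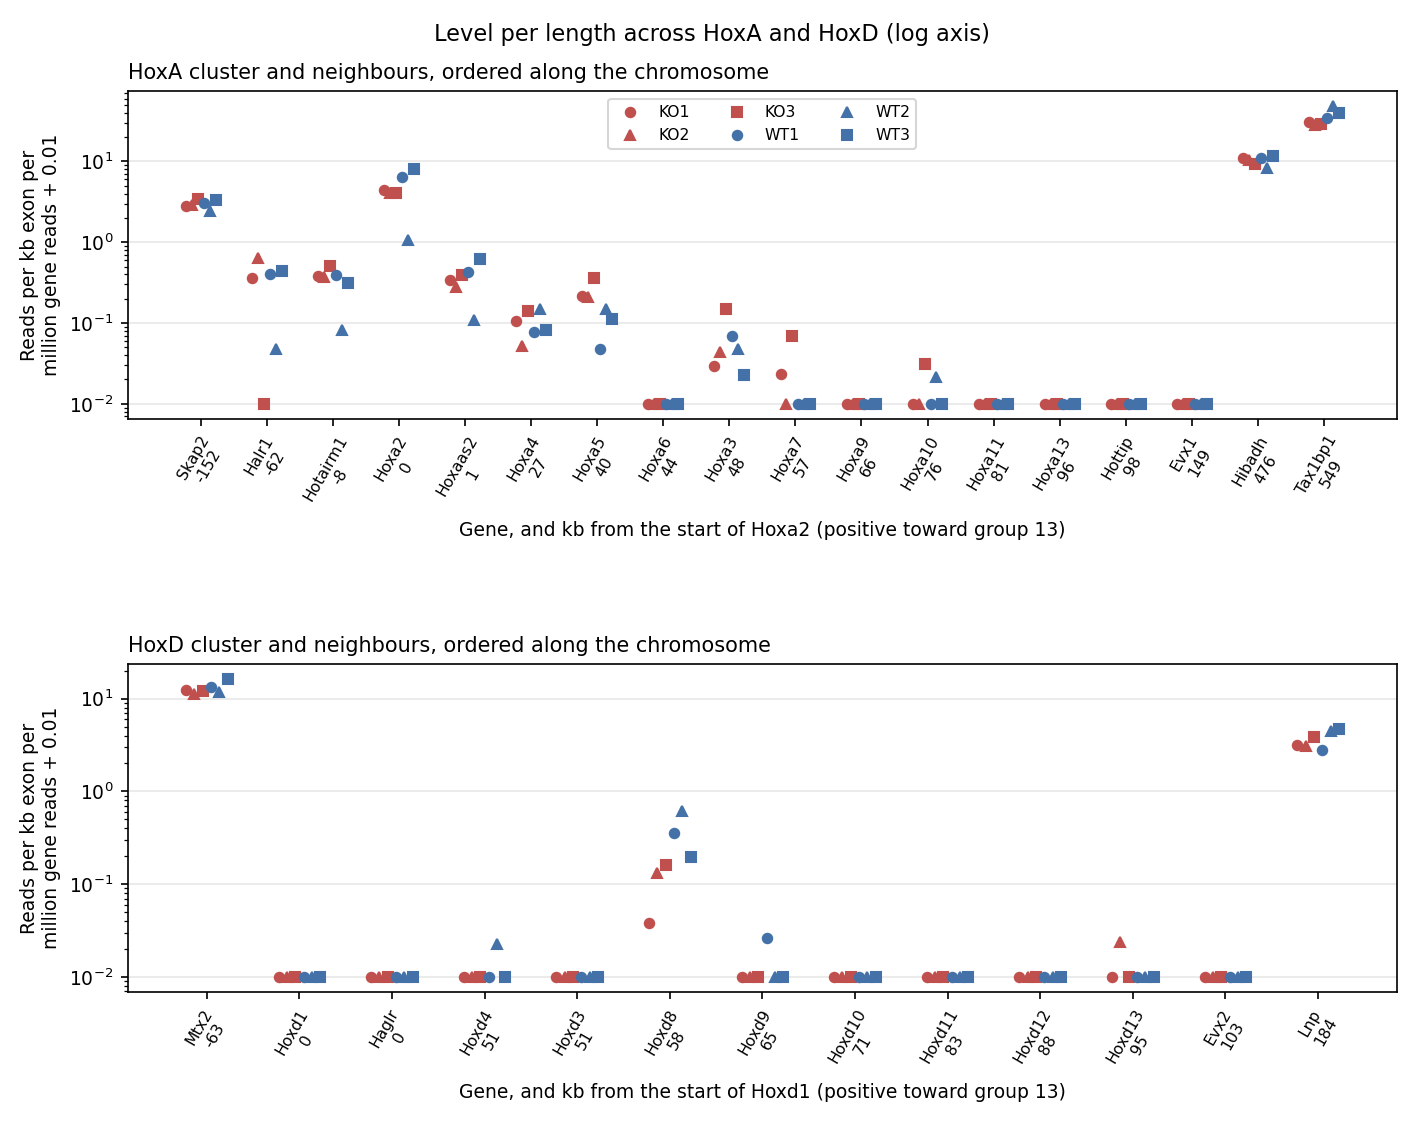
Level per length (log axis, RPKM plus 0.01) of genes along *HoxA* and *HoxD* in each culture, ordered along the chromosome toward group 13, with the distance in kb of each start from that of *Hoxa2* or *Hoxd1*; *Hoxa3* stands after *Hoxa6* because its longest annotated transcript starts 48.5 kb away. Points at 0.01 are cultures with 0 reads, which include all those of *Evx1* and *Evx2*. *Skap2*, *Hibadh*, *Tax1bp1*, *Mtx2* and *Lnp*, outside the clusters, lie well above the silent *Hox* genes.

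*Hoxa2*, the selector gene of the second pharyngeal arch, from which parts of the middle and outer ear arise, lies at chr6:52162417-52164831 on the minus strand of GRCm38. It had 202, 214 and 208 reads in KO1 to KO3 and 322, 50 and 367 in WT1 to WT3. After TMM scaling to the mean library these were 215, 199 and 197 normalized counts in the knockout cultures (mean 203 ± 9.66, SD, n = 3) and 315, 51.6 and 393 in the wildtype cultures (253 ± 179, SD, n = 3). The 3 knockout cultures lay close together, between WT2 below and the other 2 wildtype cultures above, so the genotypes overlapped. The count of 50 in WT2 had a 95% Poisson interval of 37.1 to 65.9, and the lowest knockout count, 202, one of 175 to 232. The log2 fold change, knockout relative to wildtype, was -0.31 (SE 0.65, edgeR quasi-likelihood adjusted p = 0.895). Without WT2 it was -0.80 (SE 0.19, edgeR adjusted p = 0.0842), and without WT3 it was 0.14, so neither the size nor the direction of a difference in *Hoxa2* was settled by these cultures.

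The level of *Hoxa2* in WT2 went along with other differences of that culture. Of 10 fibroblast genes, 4 were highest and 5 lowest in WT2: *Col1a1*, a chain of type I collagen, had 27187 normalized counts there and 207 to 1228 elsewhere, while *Lum*, the matrix proteoglycan lumican, had 1156 and 2859 to 7560. Of 10 mural genes, 2 were highest and 5 lowest in WT2. *Acta2*, the smooth muscle actin, had 16275 normalized counts in WT2 and 29.3 to 1204 elsewhere, and the sum of the other mural genes was 13669 in WT2 and 16245 to 22399 elsewhere. Of 15 endothelial genes, 7 were highest and 4 lowest in WT2, with *Cd34* at 4867 against 793 to 1465 and *Emcn* at 410 against 9900 to 18393. WT2 thus had no common direction within these 3 lists. Of 10 macrophage genes, 8 were lowest in WT2, and their sum was 96 there and 1396 to 3627 in the others. Epithelial and melanocyte genes were also low in WT2, with 4 of 8 lowest and 0 highest in each list. Their sums in WT2 were 4.13 and 288, against 57.7 to 1092 and 405 to 1172 in the others. The part of these differences in the *Hoxa2* value was not tested.

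**Figure D3:**
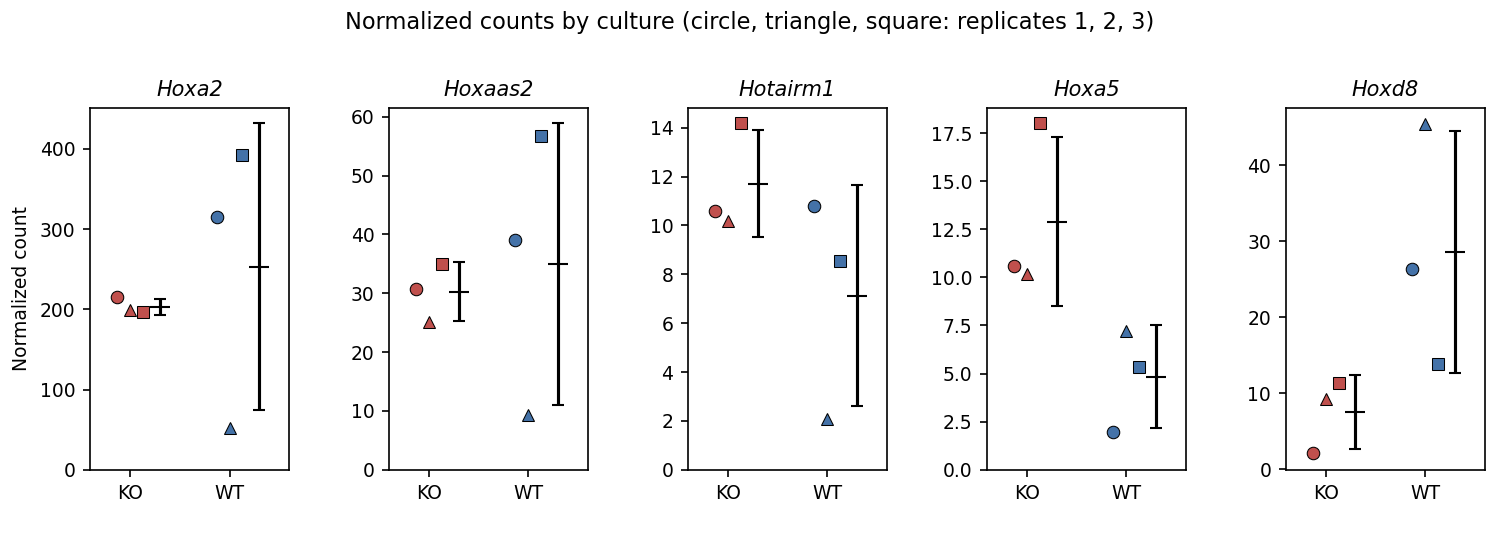
Normalized counts (TMM, scaled to the mean library; linear axes from 0, 1 axis per gene) of the 3 *Hox* genes described that passed the expression filter and 2 non-coding genes of *HoxA*, with 1 point per culture and with the mean and SD of 3 cultures beside them. WT2 (blue triangle) is the lowest for *Hoxa2*, *Hoxaas2* and *Hotairm1* and the highest for *Hoxd8*, and the genotypes do not overlap for *Hoxa5* and *Hoxd8*.

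Non-coding genes beside *Hoxa2* had reads as well. *Hoxaas2*, an antisense transcript that starts 0.843 kb from the start of *Hoxa2* (chr6:52165674-52169564, plus strand), had 29, 27 and 37 reads in the knockout and 40, 9 and 53 in the wildtype cultures. *Hotairm1*, transcribed on the other strand toward *Hoxa2* (chr6:52156902-52162119, plus strand), had 10, 11 and 15 reads in the knockout and 11, 2 and 8 in the wildtype cultures. Both were lowest in WT2 and overlapped between genotypes, with log2 fold changes of -0.21 (SE 0.64) for *Hoxaas2* and 0.70 (SE 0.62) for *Hotairm1*, and edgeR adjusted p of 0.934 and 0.728. Exons of *Hoxaas2* share 503 bases with *Hoxa3* (15.0%). The libraries were made with a strand-marking kit, but whether the counting used the strand is not given in the sources used here, so reads from such overlaps cannot be assigned with certainty.

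*Hoxaas2* kept a narrow ratio to *Hoxa2*, with 12.4% to 18% of its reads in each culture. Over the 6 cultures the normalized counts of *Hoxaas2* and *Hoxa2* had a Pearson r of 0.96 (exact permutation p = 0.0111, adjusted 0.0222 over 2 relations with *Hoxa2*) and a Spearman rho of 0.83 (exact permutation p = 0.0583, adjusted 0.117). Without WT3 and WT2, the cultures farthest from the median of *Hoxa2*, r was 0.73. *Hotairm1* and *Hoxa2* had an r of 0.46 (exact permutation p = 0.347, adjusted 0.347) and a rho of 0.09 (exact permutation p = 0.919, adjusted 0.919), and r was -0.32 without those cultures. Without WT2 alone, r was 0.92 for *Hoxaas2* and -0.66 for *Hotairm1*. The positive sign for *Hotairm1* thus rested on WT2, and the relation of *Hoxaas2* did not pass the threshold by rank. Of the other non-coding genes of the clusters, *Hoxa11os* had 1 read, in WT3, and *Hotair*, *Hottip*, *Haglr*, *Hoxaas3*, *Hoxb5os* and *Hoxd3os1* had 0 in every culture. The rows of the microRNA genes *Mir10a*, *Mir10b*, *Mir196a-1*, *Mir196a-2*, *Mir196b* and *Mir615* were also at 0, in libraries selected for poly(A) that do not measure mature microRNAs.

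Further along *HoxA*, *Hoxa3*, which patterns the thymus, parathyroid and throat cartilages, had 3, 6 and 24 reads in the knockout and 10, 6 and 2 in the wildtype cultures. KO3, at 24 reads with a 95% Poisson interval of 15.4 to 35.7, was the highest, and 503 of the exon bases of *Hoxa3* are shared with *Hoxaas2*. *Hoxa4*, a gene of the neck vertebrae, had 4, 2 and 6 reads in the knockout and 3, 6 and 3 in the wildtype cultures and so reached 10 in none.

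*Hoxa5*, which acts in the lung, trachea and the skeleton between neck and chest, lies at chr6:52201754-52204587 on the minus strand and had 10, 11 and 19 reads in the knockout and 2, 7 and 5 in the wildtype cultures. The normalized counts were 10.6, 10.2 and 18 in the knockout (12.9 ± 4.37, SD, n = 3) and 1.96, 7.22 and 5.35 in the wildtype cultures (4.84 ± 2.67, SD, n = 3). Every knockout culture lay above every wildtype culture. The log2 fold change was 1.40 (SE 0.59, edgeR p = 0.0531, adjusted p = 0.430) and so missed the threshold, and the two-sided exact permutation p was 0.1, the smallest that 3 cultures against 3 can give. *Hoxa6*, whose start lies 43.9 kb from that of *Hoxa2*, had no read, and *Hoxa7* had 1, 0 and 5 reads in the knockout and 0 in all 3 wildtype cultures.

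*Hoxd8*, a gene of the trunk, lies at chr2:74704615-74707933 on the plus strand and was the only *Hox* gene outside *HoxA* that was detected. It had 2, 10 and 12 reads in the knockout and 27, 44 and 13 in the wildtype cultures, or 2.12, 9.29 and 11.4 normalized counts (7.59 ± 4.85, SD, n = 3) and 26.4, 45.4 and 13.9 (28.6 ± 15.9, SD, n = 3). Every knockout culture lay below every wildtype culture, but KO3 and WT3 were 1 read apart. The log2 fold change was -1.88 (SE 0.71, edgeR p = 0.0365, adjusted p = 0.377), and the two-sided exact permutation p was 0.1. WT2, the lowest culture for *Hoxa2*, was the highest for *Hoxd8*, and without it the log2 fold change was -1.39 (SE 0.69, edgeR adjusted p = 0.339). On its sides, *Hoxd3* and *Hoxd10* had 0 reads in every culture, *Hoxd4* had 1, in WT2, and *Hoxd9* had 1, in WT1, so the reads of *Hoxd8* stood alone within *HoxD*.

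In *HoxB*, the reads were few and scattered. *Hoxb4* had 2, 0 and 3 reads in the knockout and 3, 1 and 0 in the wildtype cultures, *Hoxb3* had 1, 1 and 4 in the knockout and none in the wildtype, and *Hoxb7* had 2 reads in KO1 and 1 in WT1. *Hoxb2* and *Hoxb8* had 1 read each, and *Hoxb1*, *Hoxb5*, *Hoxb6*, *Hoxb9* and *Hoxb13* had none. None of these genes came near detection in any culture.

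In *HoxC*, *Hoxc10*, a gene of the lumbar spinal cord and hind limb, had 2, 0 and 8 reads in the knockout and 0 in all wildtype cultures. Its 8 reads in KO3 had a 95% Poisson interval of 3.45 to 15.8, and 166 of its exon bases are shared with *Hoxc5*. *Hoxc13*, a gene of hair and nail, had 3, 0 and 4 reads in the knockout and 0, 4 and 2 in the wildtype cultures. *Hoxc6* had 1 read in KO2, 3 in WT2 and 2 in WT3, and *Hoxc5* had 3 reads, all in WT2. *Hoxc4*, *Hoxc8*, *Hoxc9*, *Hoxc11* and *Hoxc12* had none.

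The genes of the tail end and of the limb ends were at or near 0. *Hoxa10* had 2 reads in KO3 and 1 in WT2, and *Hoxd13* had 1 read, in KO2. *Hoxa9*, *Hoxa11* and *Hoxa13* had 0 reads in every culture, as had *Hoxd1*, *Hoxd3*, *Hoxd10*, *Hoxd11* and *Hoxd12*. KO3 held 57 of the reads on the 35 *Hox* genes that were not tested, WT2 held 25 and the other cultures 9 to 18. Of the 57 in KO3, 24 were those of *Hoxa3*.

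The second question was whether the genotypes differed. Of the 38 *Hox* genes described, 3 passed the filter on low counts (*Hoxa2*, *Hoxa5* and *Hoxd8*), and they held 91.6% of the *Hox* reads. None of the 3 was called by edgeR at an adjusted p under 0.05, beside 9 of all 13479 genes tested (0.0668%), and the DESeq2 Wald test, which called 627 genes (4.65%), called none of the 3 either. At an unadjusted p under 0.05, 1 of the 3 passed, *Hoxd8*, beside 11.8% of all genes tested. The genotypes did not overlap for *Hoxa5* and *Hoxd8*, 2 of the 3, in opposite directions, beside 19.9% of all genes tested. *Hoxa5* passed the filter through its knockout cultures alone (10, 11 and 19 reads, against 2, 7 and 5). *Hoxd8* passed with its wildtype cultures (27, 44 and 13 reads, against 2, 10 and 12). Lack of overlap was thus partly set by the filter, and no conclusion is drawn from 2 of the 3. Without WT2, 395 of 13728 genes (2.88%) were called by edgeR and again none of the 3. The median log2 fold change was -0.31 over the 3 genes, the value of *Hoxa2*, and -0.02 over all genes tested.

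**Figure D4:**
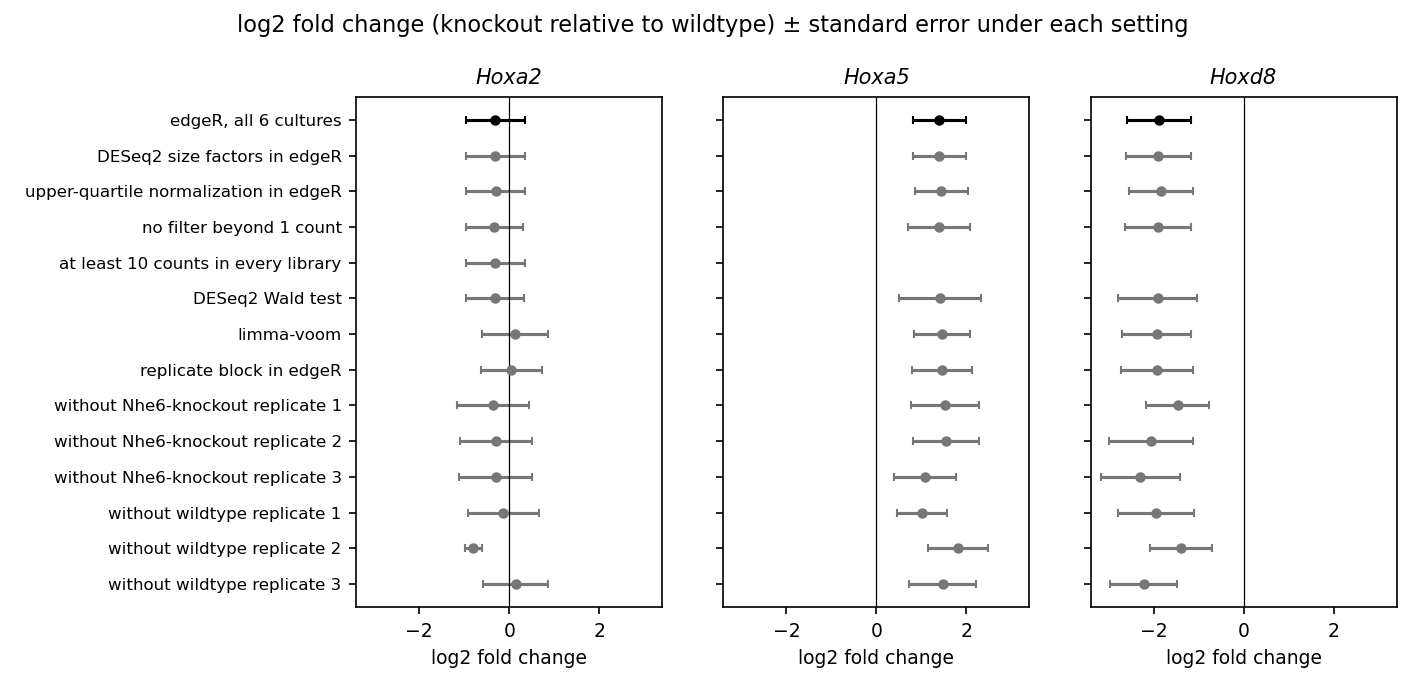
Log2 fold change, knockout relative to wildtype, with its standard error (bars), of the 3 tested *Hox* genes (panels) under the test used (black, top) and 13 other settings (grey); *Hoxa5* and *Hoxd8* have no value where 10 counts were required in every library. *Hoxa5* stays above 0, from 1.02 to 1.81, and *Hoxd8* below 0, from -2.29 to -1.39, whereas *Hoxa2* lies on either side of 0, and none of the points passed the threshold.

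Over the alternative settings the log2 fold change of *Hoxa5* ranged from 1.02 to 1.81 with adjusted p from 0.216 to 0.904, and that of *Hoxd8* from -2.29 to -1.39 with adjusted p from 0.272 to 0.881. That of *Hoxa2* ranged from -0.80 to 0.14, with a lowest adjusted p of 0.0842. A missed threshold does not show that the genotypes were alike for these genes. The other 35 *Hox* genes were too low to test, and their values above are descriptions.

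The partners of HOX proteins were expressed throughout. HOX proteins bind DNA together with PBX proteins and with MEIS and PREP proteins, the last encoded by the *Pknox* genes, and all 8 of these genes that were listed were detected in every culture and tested. *Pbx2* had the highest level per length, an RPKM of 14.7, followed by *Pknox2* at 9.05, *Meis3* at 7.54, *Meis2* at 7.17 and *Pbx3* at 5.61. Each of these means lay above that of *Hoxa2* at 4.67, and without WT2 the lowest of them, *Pbx3* at 6.23, lay above *Hoxa2* at 5.39. This order did not hold within every culture. *Hoxa2* lay above *Meis2* and *Pbx3* in WT1, and above *Meis2*, *Pbx3* and *Meis3* in WT3. The means of the other members lay below that of *Hoxa2*, with *Pknox1* at 2.36, *Meis1* at 0.618 and *Pbx4* at 0.298. None of the 8 was called by edgeR in either direction, beside 0.0668% of all genes tested, and their median log2 fold change was 0.26. *Meis2* had 2666, 2537 and 2547 normalized counts in the knockout and 2069, 2262 and 2191 in the wildtype cultures (log2 fold change 0.25, SE 0.10, edgeR adjusted p = 0.416). It was the 1 of 8 members whose genotypes did not overlap, beside 19.9% of all genes tested.

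The Polycomb proteins keep *Hox* clusters silent and the trithorax proteins keep them active, and all 30 genes listed for both groups were detected in every culture. *Bmi1*, *Cbx6* and *Rnf2*, all of Polycomb complex 1, had the highest levels per length, RPKM of 39.5, 34.9 and 31.0, followed by the insulator gene *Ctcf* at 19.3, *Pcgf2* at 15.9 and *Suz12* at 14.2. None of the 30 was called by edgeR with all cultures, beside 0.0668% of all genes tested, and the median log2 fold change was 0.02. DESeq2 called 3 of the 30 (*Ezh1*, *Ezh2* and *Phf19*), beside 4.65% of all genes, and edgeR without WT2 called 3 (*Ezh2*, *Phf19* and *Cbx7*), beside 2.88%. The genotypes did not overlap for 5 of the 30, beside 19.9% of all genes tested. *Ezh1* and *Ezh2*, the alternative methyltransferases of Polycomb complex 2, are given after their values were seen. *Ezh2* had 863, 899 and 673 normalized counts in the knockout and 325, 255 and 402 in the wildtype cultures, without overlap (log2 fold change 1.31, SE 0.22, edgeR adjusted p = 0.0971, and 0.0428 without WT2). *Ezh1* lay the other way, with 1339, 1371 and 1131 in the knockout and 2180, 2815 and 1675 in the wildtype cultures, also without overlap (log2 fold change -0.80, SE 0.21, edgeR adjusted p = 0.210, and 0.117 without WT2).

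The listed flanking genes of *HoxA*, *HoxC* and *HoxD* were expressed while the clusters between them were mostly not. Beside *HoxB*, the nearest listed gene on each side was itself at or near 0 in most cultures. Of 20 flanking genes, 17 were detected in every culture and tested. None of the 17 was called by edgeR, beside 0.0668% of all genes tested, and the genotypes did not overlap for 2, beside 19.9%. Those not detected in every culture, *Skap1*, *Ttll6* and *Calcoco2*, all lie beside *HoxB*. Their highest counts in a culture were 6, 14 and 2. Beside *HoxA*, *Skap2*, on the side of *Hoxa2*, had 734 to 1126 reads per culture, and *Hibadh*, 476 kb from the start of *Hoxa2* on the other side, had 2236 to 3176. Beside *HoxD*, *Mtx2*, beyond *Hoxd1*, had 1168 to 1532 reads, and *Lnp*, 184 kb on the other side, had 713 to 1096. *Skap2*, *Hibadh*, *Mtx2* and *Lnp* are shown because they bound the plotted clusters. *Evx1* and *Evx2*, homeobox genes next to the tail ends of *HoxA* and *HoxD*, had 0 reads in every culture, and so had the ParaHox genes *Gsx1*, *Gsx2*, *Pdx1*, *Cdx1*, *Cdx2* and *Cdx4*, the relatives of the *Hox* genes that pattern forebrain, pancreas and gut.

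Other transcription factors with a regional pattern set the scale for the low *Hox* levels. Of 28 factors of head and cranial mesenchyme, 14 were detected in every culture and 19 were tested. *Foxc1* had a mean RPKM of 47.4, *Eya2* 46.2, *Prrx1* 40.0, *Twist1* 29.5 and *Six2* 14, all above *Hoxa2* at 4.67. Of 8 factors of the otic mesenchyme, which surrounds the developing inner ear, 7 were detected in every culture, led by *Zic2* at 105, *Tbx18* at 74.1, *Prrx2* at 29.1 and *Pou3f4* at 28.3. Of 18 trunk and limb factors, 4 were detected in every culture and 4 had 0 reads in all, and the highest were *Tbx15* at 25.4, *Emx2* at 2.91, *Pax9* at 2.7 and *En1* at 0.839. Without WT2 these were 11.4, 3.48, 1.17 and 0.844. None of the 3 lists held a gene called between genotypes by edgeR with all cultures, beside 0.0668% of all genes tested. DESeq2 called 1 gene in each, *Six2*, *Foxc2* and *Meox2*, beside 4.65% of all genes tested. The genotypes did not overlap for 5 of 19 head, 3 of 7 otic and 4 of 8 trunk and limb factors tested, beside 19.9% of all genes. Of the trunk and limb factors, *Meox1* and *Meox2* passed the filter on low counts through the knockout cultures alone. They had 11, 14 and 15 reads and 14, 35 and 14 reads there, and at most 4 and 3 in a wildtype culture. Their lack of overlap was thus partly set by the filter, and no conclusion is drawn from it or from the call of *Meox2*. *Six2*, a factor of mesenchymal progenitors, had 483, 492 and 488 normalized counts in the knockout and 1014, 1435 and 979 in the wildtype cultures, without overlap (log2 fold change -1.23, SE 0.18, edgeR adjusted p = 0.0869, and 0.0229 without WT2, where it was the 1 gene called in these lists, beside 2.88% of all genes tested). Some of the trunk and limb factors, among them *Tbx15*, *Emx2* and *Pax9*, are also known from the head.

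**Figure D5:**
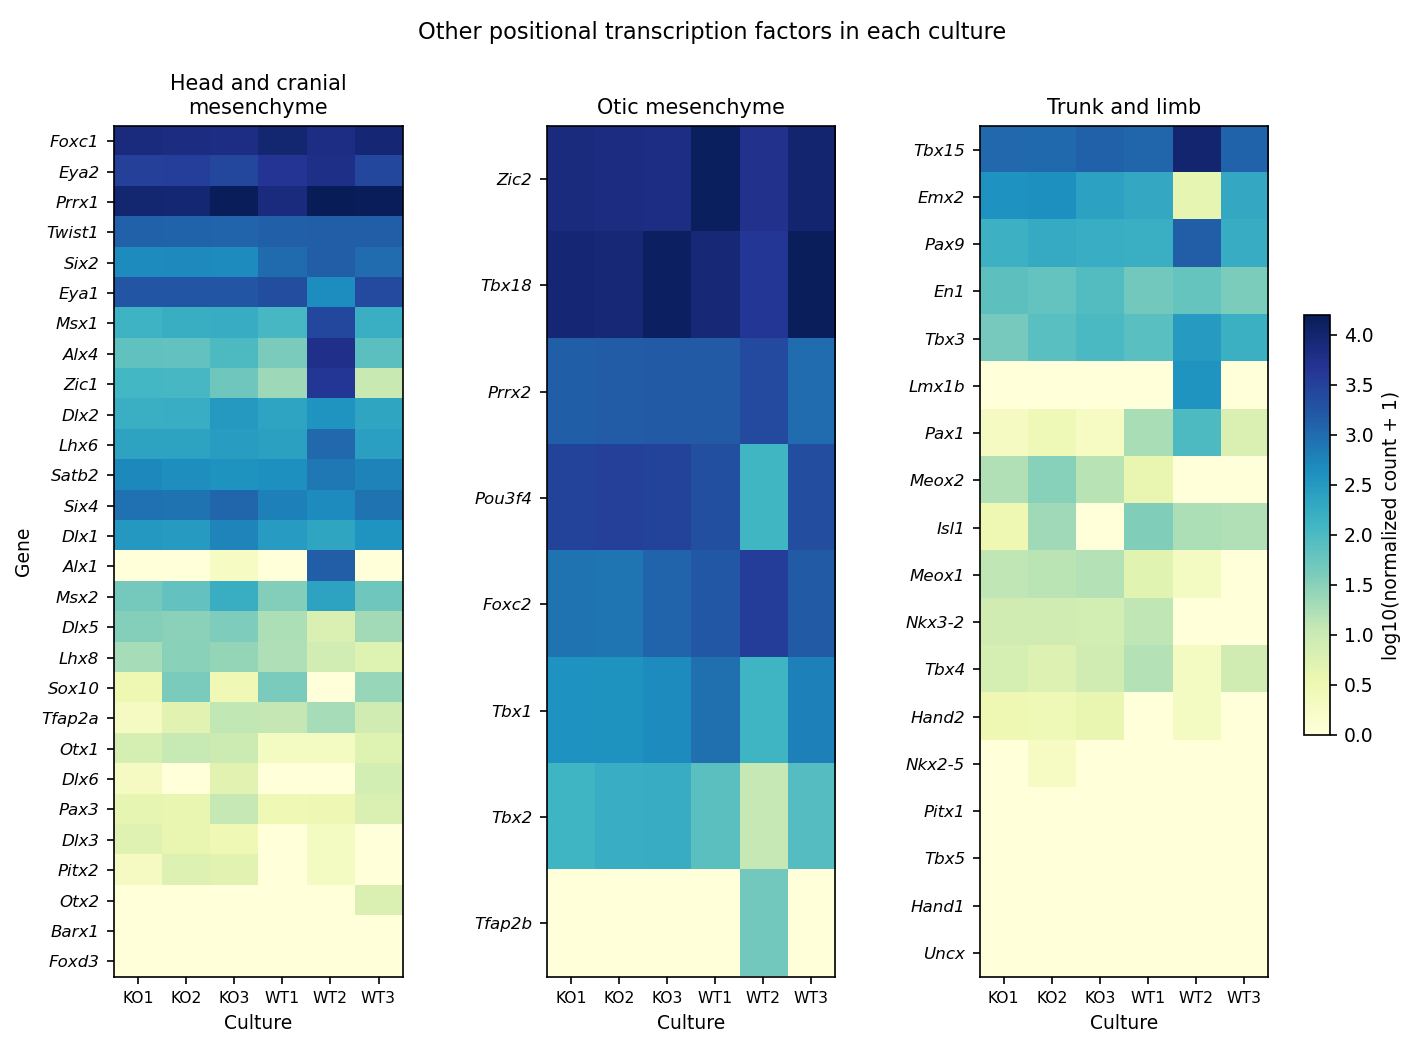
Normalized counts (colour, log10 of the count plus 1) of transcription factors of head and cranial mesenchyme, otic mesenchyme and trunk and limb (panels) in the 6 cultures (columns), each list ordered by mean level per length. WT2 differs from the other columns in each panel, with *Pou3f4* at 122 against 2092 to 3243 and *Tbx15* at 9868 against 1062 to 1298 normalized counts.

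The culture with the fewest *Hox* reads also differed in these factors. WT2 had 122 normalized counts of *Pou3f4*, the otic mesenchyme factor mutated in a form of X-linked deafness, where the other 5 cultures had 2092 to 3243. It had 3.10 of *Emx2*, where the others had 192 to 424, and 9868 of *Tbx15*, where the others had 1062 to 1298. Values more than 4-fold outside the range of the other cultures were found in WT2 for 3 of 19 head factors, 2 of 7 otic and 3 of 8 trunk and limb factors, and in no other culture for these lists. For the 3 tested *Hox* genes this held in no culture, and the *Hoxa2* level of WT2, 51.6 normalized counts, was below the next lowest, 197, by less than 4-fold.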

How the data were processed

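RNA of 6 cultures was sequenced from poly(A)-selected, strand-marked libraries. What the authors deposited is, for every gene symbol and library, an unscaled count, and the submitters' processing notes name bcl2fastq 2.20.0.422, STAR 2.7.7a, HTSeq 0.13.5 and DESeq2 1.26.0 with mm10. Its 5 summary lines, 22.2% of all reads, were left out. Genes were filtered with filterByExpr (minimum count 10, grouped by genotype), normalized with TMM and compared, *Nhe6*-knockout against wildtype with genotype alone in 1 fit of all 6 libraries, with the two-sided edgeR quasi-likelihood test (version 4.0.16, R 4.3.3), Benjamini-Hochberg adjusted over 13479 genes and a threshold of 0.05. DESeq2 1.42.0, limma-voom (limma 3.58.1), other normalizations, filters and left-out cultures were alternatives. Where p-values rest on 3 cultures a genotype, they measure the spread between cultures, each from pooled mice.

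Positions, exon lengths and exon overlaps came from GENCODE M21 on GRCm38, in which all 39 *Hox* rows and 24046 of the 24421 genes were found. Motifs were searched in RefSeq promoters on both strands. The tests were tried on simulated counts. A few genes, 1 *Hox* gene and some list members among them, are not reported here and are left out of the list counts. The members, the gene lists and the tests were chosen with earlier results of these data known. The text may name all *Hox* genes, the non-coding genes of their clusters, *Hprt*, *Cdh5*, *Pecam1*, *Cldn5* and *Vwf*, and of each list the 6 genes of highest level per length and any gene called. Other genes were named after their values were seen, including *Acta2* and the edge genes of the clusters where they fall outside that rule. The lists of melanocyte, epithelial and skeletal muscle genes had 2 of 8, 0 of 8 and 1 of 8 members detected in every culture.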

Additional observations from a re-analysis of the deposited data

How the results depend on the processing

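None of the *Hox* genes described was called by edgeR, DESeq2 or limma-voom under any of the 13 alternatives, and the directions of *Hoxa5* and *Hoxd8* were kept in all 12 settings that tested them. Over all genes, 9 were called; the count was 21 with no filter beyond 1 count, 21 with at least 10 counts in every library, 627 with DESeq2, 2 with the replicate number as a block, and 0 (without KO3) to 395 (without WT2) when a culture was left out. The correlations of same-numbered deviations were 0.207, -0.189 and 0.111, of mixed sign. So few cultures cannot show whether the numbers paired them, and they were treated as unpaired. *Hoxa2* turned to 0.13 in limma-voom, to 0.05 with the replicate block and ranged from -0.80 to 0.14 with a culture left out. The *Hox* median, -0.31, was 0.71 over 19 genes without the filter, where genes at 0 in a genotype give fitted folds that are no bounds, and -0.80 (without WT2) to 0.14 (without WT3) with a culture left out. The 1 *Hox* gene detected in every culture, *Hoxa2*, became 5 at 1 read, and 1 to 2 with a culture left out, with *Hoxd8* added without KO1. The cause of these shifts was not tested. Depth limits the 35 untested *Hox* genes, whose counts never exceeded 24.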

Other observations

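Several regional factors were far higher in WT2, the culture with the fewest *Hox* reads, than in any other culture. They were picked after their values were seen. *Alx1* and *Alx4*, homeobox genes of the frontonasal mesenchyme, had 1443 and 5593 normalized counts in WT2. In the other 5 cultures *Alx1* had at most 0.947 and *Alx4* had 40.1 to 96.6. *Zic1* had 4360 in WT2 and 9.63 to 117 elsewhere, *Msx1* had 2598 and 111 to 173, and *Lmx1b*, of the trunk and limb list, had 366 and 0.

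*Halr1*, a non-coding gene between *HoxA* and *Skap2*, was also picked after its values were seen. It had 9, 18 and 0 reads in KO1 to KO3 and 11, 1 and 11 in WT1 to WT3, so that KO3 and WT2 were the low cultures and the genotypes overlapped.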
